A study of Mus musculus with 24 samples.

Results

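The let-7 and miR-98 family is a group of microRNAs (miRNAs), short RNAs that bind messenger RNAs and reduce their translation and stability. A miRNA finds its targets mainly through its seed, bases 2 to 8 from the 5′ end, and the members of a family share that seed. The let-7 precursors are processed poorly in embryonic cells, where LIN28 binds them, and the mature miRNAs accumulate as cells differentiate. HMGA2, MYC and RAS messenger RNAs are well known targets, and let-7 miRNAs are abundant in blood cells, in liver and in the vesicles of serum.

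The 9 members were mmu-let-7a-5p, mmu-let-7b-5p, mmu-let-7c-5p, mmu-let-7d-5p, mmu-let-7e-5p, mmu-let-7f-5p, mmu-let-7g-5p, mmu-let-7i-5p and mmu-miR-98-5p, written below without the species and strand, taken by name from the 1881 mouse miRNAs on the array. They were measured in RNA from serum exosomes, small vesicles that cells release, of male BALB/c mice. The 6 groups were mice given toosendanin (TSN), a Melia triterpenoid that is toxic to the liver, for 3, 9 or 21 days at a dose of 80 mg/kg, and mice given vehicle (control) for 3, 9 or 21 days. Each group had 4 arrays, so n = 4 stands behind every group mean below. The labels give no age, and do not say whether 1 mouse or several gave a sample, so a p-value reflects only how far the samples of a group scatter.

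All 9 members matched a mature sequence in RefSeq (GRCm38.p6). They are shown because the array has to separate RNAs that differ by as little as 1 base. The seed is in capitals and is the same in all 9.
let-7a: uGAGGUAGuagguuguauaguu
let-7b: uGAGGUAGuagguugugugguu
let-7c: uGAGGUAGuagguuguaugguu
let-7d: aGAGGUAGuagguugcauaguu
let-7e: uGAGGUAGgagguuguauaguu
let-7f: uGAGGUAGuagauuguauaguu
let-7g: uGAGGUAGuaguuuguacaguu
let-7i: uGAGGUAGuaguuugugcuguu
miR-98: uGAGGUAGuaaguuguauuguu

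Set against let-7a, with positions counted from 1 at the 5′ end, let-7c differed by A19G, let-7e by U9G and let-7f by G12A alone. let-7b differed by A17G and A19G, let-7d by U1A and U16C, let-7g by G12U and U18C, and miR-98 by G11A and A19U. let-7i was the farthest from let-7a, with G12U, A17G, U18C and A19U. Of the 1679 mature miRNAs in the table, 11 carried the seed. The other 2, let-7k and miR-1961, were above background on none of the 24 arrays.

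Several members come from shared gene clusters, in which neighbouring precursors are cut from 1 primary transcript. Mirlet7a-1 (mature let-7a at chr13:48538239-48538260, minus strand), Mirlet7f-1 (chr13:48537889-48537910) and Mirlet7d (chr13:48536078-48536099) lie side by side on chromosome 13. Mirlet7c-2 (chr15:85706616-85706637, plus strand) and Mirlet7b (chr15:85707325-85707346) span 801 bp with their hairpins. Mirlet7f-2 and Mir98 span 976 bp on the X chromosome, where mature miR-98 lies at chrX:151913229-151913250. let-7c also has a gene on chromosome 16, and let-7e, let-7g and let-7i have genes of their own on chromosomes 17, 9 and 10.

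Each member had 2 probes of 18 to 22 bases, the longer being the shorter extended by 1 base, and the brighter stood for the miRNA. All 18 probes begin opposite the last base of the mature miRNA. The probes for let-7a and its nearest neighbours are shown because they differ at 1 base, written in capitals where it differs from the let-7a probe.
let-7a probe: aactatacaacctactacct
let-7c probe: aacCatacaacctactacc
let-7d probe: aactatGcaacctactacc
let-7e probe: aactatacaacctCctacc
let-7f probe: aactatacaaTctactacctc

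How far each probe also binds its neighbours' RNA was not tested. Since probes differ in how brightly they bind, levels are compared between groups for 1 member and never between members.

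Values are the background-corrected fluorescence of a probe divided by the array's 75th percentile, on the log2 scale. A value of 0 therefore equals that percentile, and a change of 1 is a doubling. The TSN arrays were brighter before this scaling, with 75th percentiles of 737 to 1750 fluorescence units against 73.5 to 609 on control arrays, and no slide held both arms. Arm and slide cannot be told apart in any comparison of TSN with control. Without scaling, the 7 members measured on every array were brighter on TSN arrays, by 3.5 to 3.92 (log2) at day 3, by 3.07 to 4.36 at day 9 and by 2.44 to 2.88 at day 21, so every change given here is relative to the rest of each array. Less miRNA per vesicle and fewer vesicles that carry it cannot be told apart in such samples.

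A set of 7 members, let-7a, let-7b, let-7c, let-7d, let-7f, let-7g and let-7i, were well above background on all 24 arrays. let-7e and miR-98 were well above background on all 12 TSN arrays but on 0 of 4 control arrays at day 3, 0 of 4 at day 9, and 3 of 4 (let-7e) or 2 of 4 (miR-98) at day 21. In control serum at days 3 and 9 these 2 miRNAs have only an upper bound. Any value of theirs below that draws on these groups, interaction terms included, is a fitted difference of signals on the scale and not a measured size of change.

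**Figure D1:**
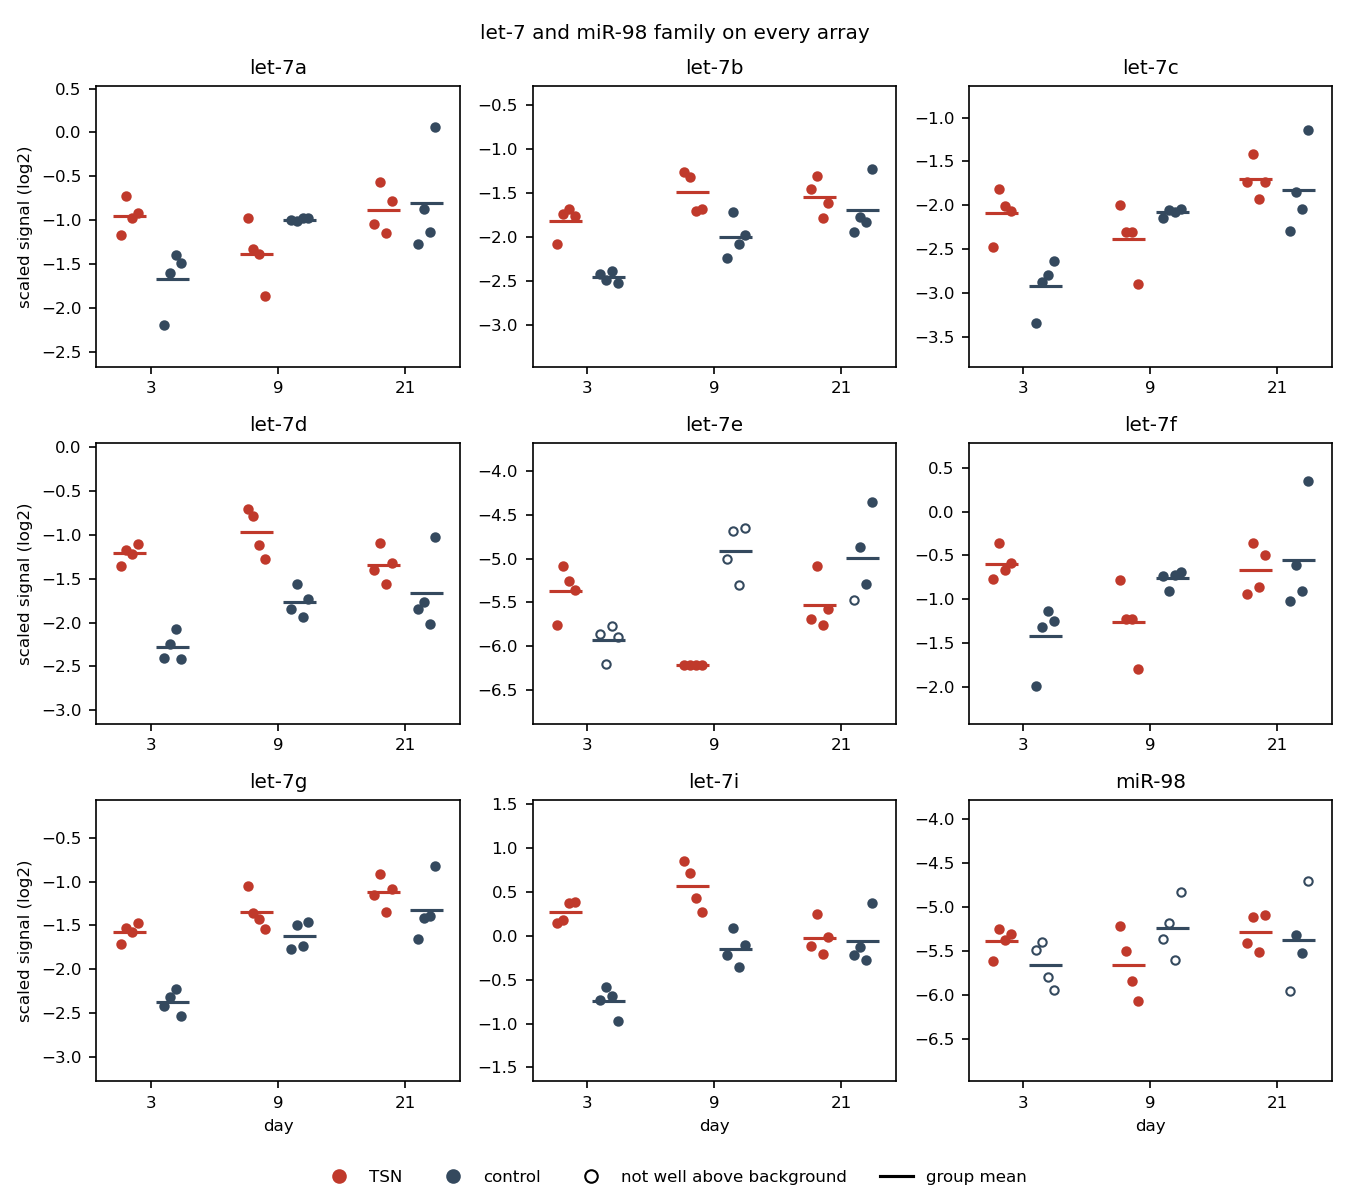
Scaled signal (log2) of each member on every array by day, with TSN left of control at each day, group means as bars and open circles where a member was not well above background. The y axes differ in level but span the same 3.2 log2 units. The control group of day 3 has the lowest mean for the 7 members measured throughout, and at day 9 let-7d and let-7i sit above control while let-7a, let-7c and let-7f do not.

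At day 3 the family was higher in TSN exosomes almost as a whole. By limma with Benjamini-Hochberg adjustment over the 444 miRNAs tested, 8 of the 9 members passed at an adjusted p under 0.05, all higher, against 29.1% of all tested miRNAs called higher. The 8 include let-7e, whose control arrays were all not well above background. All 7 members measured on every array were called higher, against 27% of the 152 miRNAs so measured. The arrays of 8 members, let-7e again among them, did not overlap between the arms and lay higher in TSN, against 24.1% of all tested miRNAs. The median change of the 9 was 0.80 (log2), beside 0.10 over all tested miRNAs.

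let-7d and let-7i changed most. let-7i measured 0.15, 0.18, 0.38 and 0.39 on the TSN arrays of day 3, against -0.73, -0.58, -0.68 and -0.97 on the control arrays. Every TSN array lay above every control array, and let-7i rose by 1.02 (SE 0.15), a 2.02-fold change (limma adjusted p = 1.14e-05). let-7d measured -1.35, -1.17, -1.22 and -1.1 on TSN arrays, against -2.40, -2.25, -2.07 and -2.41 on control arrays. It rose by 1.07 (SE 0.172), or 2.10-fold (limma adjusted p = 3.24e-05).

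The other measured members rose by less. let-7c rose by 0.82, let-7f by 0.82, let-7g by 0.80, let-7a by 0.73 and let-7b by 0.64, which are 1.56- to 1.77-fold changes (limma adjusted p of 0.000116 to 0.0164). let-7a measured -1.17, -0.72, -0.98 and -0.92 on TSN arrays, against -2.20, -1.60, -1.4 and -1.49 on control arrays. Among these 5 the gap between the arms was narrowest for let-7c, where the lowest TSN array was at -2.48 and the highest control array at -2.64.

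The 2 dim members gave no measured size at day 3. let-7e was called higher (limma adjusted p = 0.0314) against control arrays that were all not well above background, and its direction turned to -0.58 with no scaling, read relative to the median miRNA. miR-98 averaged -5.39 ± 0.16 on TSN arrays and -5.66 ± 0.26 on control arrays (SD), and the arms overlapped (limma adjusted p = 0.374). Quantile normalization left 4 of the 9 members called at day 3, with let-7b at its lowest change of 0.26, and the 7 measured members kept a positive change under every alternative tried. The call of let-7e was lost under 9 of 11 alternatives of the processing. Of 12, let-7a lost its call under 4, let-7b under 2, and let-7c, let-7f and let-7g under 1 each. let-7d and let-7i lost it under 0.

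**Figure D2:**
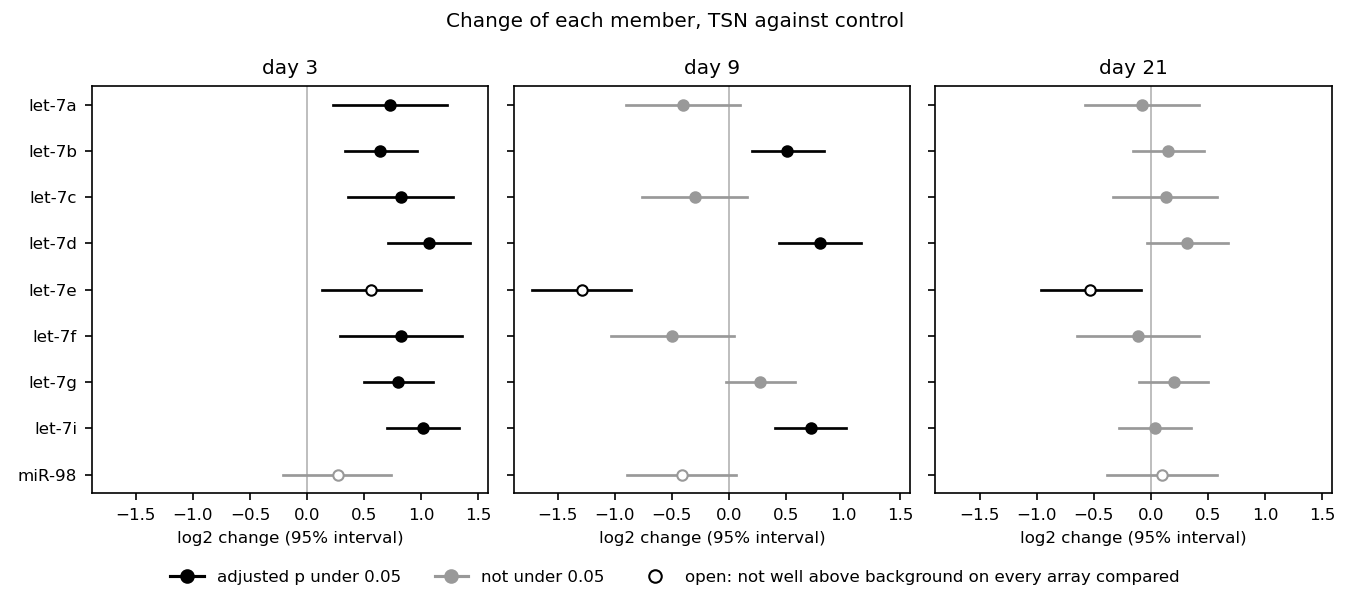
Log2 change of each member, TSN against control, at days 3, 9 and 21, with 95% intervals from the limma fit. Black marks an adjusted p under 0.05, grey any other, and open circles members not well above background on every array compared. At day 3 the 7 filled circles lie between 0.64 and 1.07, at day 9 they run from -0.50 to 0.80, and at day 21 from -0.11 to 0.32.

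At day 9 the family no longer moved as 1 block. let-7d, let-7i and let-7b were higher in TSN exosomes, 3 of 9 members against 27.9% of all tested miRNAs. let-7a, let-7c and let-7f had changes of -0.40, -0.30 and -0.50 that did not pass, and let-7g had 0.27. Over the 152 miRNAs measured on every array the median change was -0.40, with 24.3% called higher and 47.4% lower. Of the 7 members so measured 3 were higher and 0 lower. let-7e was the 1 member called lower, against 34.2% of all tested miRNAs.

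let-7i measured 0.86, 0.72, 0.43 and 0.27 on the TSN arrays of day 9, against -0.22, 0.09, -0.35 and -0.10 on control arrays. The arms did not overlap, and let-7i rose by 0.72 (SE 0.15), or 1.64-fold (limma adjusted p = 0.000385). let-7d measured -0.70, -0.78, -1.12 and -1.28 on TSN arrays, against -1.84, -1.56, -1.94 and -1.73 on control arrays. It rose by 0.80 (SE 0.172), or 1.74-fold (limma adjusted p = 0.000506). let-7b averaged -1.49 ± 0.23 on TSN arrays and -2.0 ± 0.21 on control arrays (SD) and rose by 0.51 (limma adjusted p = 0.00634).

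let-7a measured -0.98, -1.33, -1.39 and -1.86 on TSN arrays, against -1.0, -1.01, -0.98 and -0.98 on control arrays. The 4 control arrays lay close together, and 3 of the 4 TSN arrays lay below all of them. let-7f showed the same arrangement, with -0.78, -1.23, -1.23 and -1.79 on TSN arrays against -0.73, -0.91, -0.72 and -0.69 on control arrays (limma adjusted p = 0.0991). Without TSN replicate 1, the highest of these TSN arrays, the change of let-7f was -0.66 (limma adjusted p = 0.0418), and 3 members were called lower, the others being the unmeasured let-7e and miR-98.

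let-7e stood at the floor of the scale, -6.21, on all 4 TSN arrays of day 9, where its unscaled signal was 11.8 to 22.7 fluorescence units and well above background. On the control arrays it was 2.93 to 7.40 units and not well above background. The call of lower (limma adjusted p = 2.76e-05) therefore compares the floor with an unmeasured signal. By the unscaled signals let-7e was brighter on the TSN arrays by 0.83 (log2), with its control arrays at the floor of that scale. The median miRNA was brighter by 2.45 without scaling, so relative to it let-7e was lower. Its change was negative under all 11 alternatives of the processing, at -1.62 to -0.13, and the call was lost under 5 of them. miR-98, whose control arrays were also not well above background, did not pass (limma adjusted p = 0.123).

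The calls at day 9 depended on the processing. With quantile normalization, read relative to the median miRNA, let-7i was at 0.03 (limma adjusted p = 0.9) and let-7b at 0.32 (0.0668), and let-7d alone was called higher. By the dimmer probe let-7d was at 0.40 (limma adjusted p = 0.202) and let-7b at 0.23 (0.359), and let-7i alone was called higher. In the authors' deposited values none was called higher, with let-7d at 0.42, let-7i at 0.30 and let-7b at 0.14 relative to the median. With normexp background correction let-7a, let-7c and let-7f had changes of -0.70, -1.08 and -0.70, the same sign as above. All tested miRNAs shifted by a median of -2.04 under that correction, and relative to this shift the 7 measured members were all higher, let-7a by 1.34, let-7c by 0.96 and let-7f by 1.34.

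The highly abundant erythroid miRNAs also moved at day 9. Of 6 erythroid markers, 5 were higher and none lower in TSN exosomes, their summed scaled signal was 79.2 to 99.9 on TSN arrays against 35 to 68.2 on control arrays, and the defining marker miR-451a rose by 0.81 (limma adjusted p = 0.00555). Of the other lists, 3 of 6 platelet markers and 2 of 5 tested leukocyte markers were lower and none higher, with median changes of -0.39 and -0.44. Of 4 tested liver markers 2 were higher and none lower, with a median change of 1.5. The summed signals on TSN arrays against control arrays were 9.41 to 11.3 against 11.8 to 16.1 for platelet markers, 0.713 to 1.03 against 1.63 to 1.93 for leukocyte markers and 0.543 to 4.93 against 0.334 to 0.49 for liver markers. Their part in the family's values was not tested.

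At day 21 let-7e alone passed. Of the 9 members 0 were higher by limma, and 0 at an unadjusted p under 0.05, against 23.2% of all tested miRNAs, and 1 was lower, against 21.6%. The changes of the 7 measured members ran from -0.11 (let-7f) to 0.32 (let-7d), and the arms overlapped for all 9 members, where 38.3% of all tested miRNAs did not overlap. let-7i measured -0.12, 0.25, -0.21 and -0.01 on TSN arrays, against -0.22, -0.13, -0.27 and 0.38 on control arrays.

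The call of lower was let-7e, at -0.53 (limma adjusted p = 0.0465). Of its control arrays 3 of 4 had a measured signal. It was lost when any of 5 of the 8 arrays was left out. Control replicate 4 was the highest array of its group for every member. Without it let-7d was higher in TSN by 0.54 (limma adjusted p = 0.00447) and let-7g by 0.37 (0.0234), while let-7e was at -0.31 (0.212). With normexp background correction, let-7a and let-7f had changes of -0.27 and -0.23, and relative to a median shift of -1.38 all 7 measured members were higher, let-7a by 1.12 and let-7f by 1.15.

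The TSN effect itself was compared between days by interaction terms. The effect at day 9 minus that at day 3 was -1.32 for let-7f, -1.13 for let-7a and -1.12 for let-7c (log2; limma adjusted p of 0.0141 to 0.0232). The median of this difference was -0.27 over all tested miRNAs and -0.43 over the 152 measured on every array. let-7e also passed, though both of its control groups were not well above background, which makes 4 of 9 members lower against 15.1% of all tested miRNAs. The differences for let-7b, let-7d and let-7i, -0.13, -0.27 and -0.30, did not pass. The count of 4 was 1 with no scaling, spike-in probes or the 75th percentile over all probes, 0 with normexp or total gene signal, and 9 by the dimmer probe. The calls of let-7a, let-7c and let-7f were each lost under 6 of the 12 alternatives of scaling, background correction, signal, probe, floor and filter, called settings below, with the direction kept. That of let-7a was also lost without control day 3 replicate 1, TSN day 3 replicate 2 or TSN day 9 replicate 4 (limma adjusted p of 0.0506 to 0.0583).

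For day 21 minus day 9 let-7i alone passed, at -0.68 (limma adjusted p = 0.019), against 11.7% of all tested miRNAs called lower. This call was lost under 7 of 12 settings, where the difference ran from -1.21 to -0.14. For day 21 minus day 3, let-7i at -0.98 (limma adjusted p = 0.00905) and let-7d at -0.74 (0.0498) passed. With let-7e, whose control arrays of day 3 were not well above background, 3 of 9 members were lower, against 9.01% of all tested miRNAs. let-7i lost its call under 3 of 12 settings and let-7d under 11, and let-7d also lost it when any of 12 of the 16 arrays was left out.

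**Figure D3:**
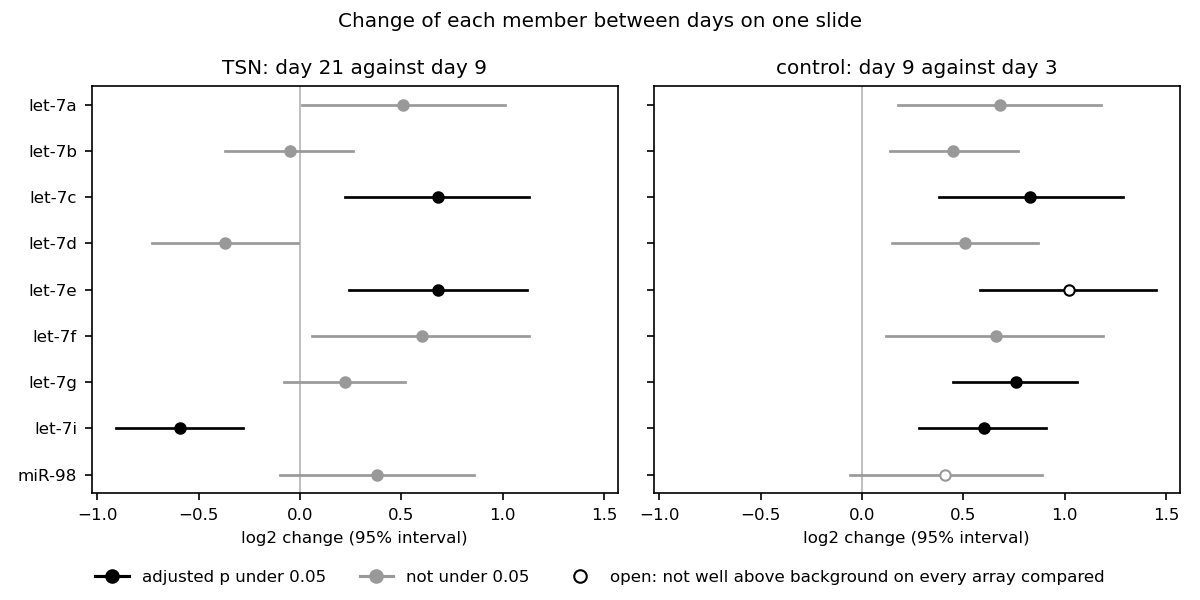
Log2 change of each member between days that shared a slide, with 95% intervals and marks as in the plot of TSN against control. In TSN exosomes let-7c and let-7i passed in opposite directions, at 0.68 and -0.59. In control exosomes all 9 changes lie above 0, those of let-7e and miR-98 without a measured signal.

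Day 21 against day 9 in the TSN arm lay on 1 slide, with the days in different rows, so day and row cannot be told apart. There let-7c rose by 0.68 (SE 0.219, limma adjusted p = 0.0162) and let-7i fell by 0.59 (SE 0.15, limma adjusted p = 0.00347), and neither member's arrays overlapped between the days, as for 38.7% of all tested miRNAs in either direction. let-7c measured -1.74, -1.41, -1.93 and -1.73 at day 21, against -2.0, -2.31, -2.31 and -2.90 at day 9. let-7e was called higher as well, at 27.7 to 33.8 unscaled units at day 21 against 11.8 to 22.7 at day 9, though its floor value at day 9 leaves the scaled change without a size. In all, 2 of 9 members were higher, against 30.6% of all tested miRNAs, and 1 lower, against 12.8%. let-7a (0.51), let-7f (0.60) and let-7d (-0.37) did not pass. The median change was 0.17 over all tested miRNAs and 0.41 over the 152 measured on every array. Of those 152, 43.4% were called higher and 16.4% lower, against 1 higher and 1 lower of the 7 measured members. By the shorter probes let-7i changed by -0.43, let-7c by 0.84 and let-7d by 0.32, the last opposite in sign to its longer probe. The direction of both was kept under all 12 settings, but not the calls. That of let-7c was lost under 6, with the 75th percentile over all probes, spike-in probes, no scaling, normexp, total gene signal or no filter, at 0.51 to 0.72 (limma adjusted p of 0.0671 to 0.502), and without TSN day 9 replicate 4 or TSN day 21 replicate 2 (0.0773 and 0.0522). That of let-7i was lost under 5, with quantile normalization, spike-in probes, no scaling, the authors' deposited values or the dimmer probe, at -0.73 to -0.24 (limma adjusted p of 0.109 to 0.307). In the same comparison 5 of 6 erythroid markers were lower and none higher, with a median change of -1.11 and summed signals of 43.3 to 65.4 at day 21 against 79.2 to 99.9 at day 9. Of the other lists 1 of 6 platelet and 1 of 5 tested leukocyte markers were higher and none lower, and 1 of 4 tested liver markers was lower and none higher. Their part in the family's values was not tested. Without TSN day 9 replicate 1, let-7a and let-7f also passed, at 0.65 and 0.76 (limma adjusted p = 0.0481 and 0.029).

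Day 9 against day 3 in the control arm also lay on 1 slide. All 9 changes were above 0, those of let-7e and miR-98 without a measured signal. let-7c (0.83), let-7g (0.76), let-7i (0.60) and the unmeasured let-7e passed, 4 of 9 members against 9.46% of all tested miRNAs called higher. let-7g measured -1.77, -1.5, -1.74 and -1.46 at day 9, against -2.42, -2.32, -2.23 and -2.53 at day 3. All 4 arrays of day 9 lay above all 4 of day 3 for 8 members, miR-98 being the exception, against 12.4% of all tested miRNAs. The 8 include let-7e, which was not well above background on any array of either day. The days sat in different rows of the slide, so day and row cannot be told apart. The count was 0 with no scaling, spike-in probes, the 75th percentile over all probes, normexp or total gene signal, and 2 without control day 9 replicate 2, while the 7 measured members kept their direction throughout. In the same comparison 3 of 6 platelet markers were higher and none lower, among them miR-223-3p at 0.54 (limma adjusted p = 0.0474), and the list's summed signal was 11.8 to 16.1 at day 9 against 6.74 to 9.85 at day 3. Of 5 tested leukocyte markers 1 was higher and none lower, with a median change of 0.46 and summed signals of 1.63 to 1.93 against 0.986 to 1.32. Of 6 erythroid and 4 tested liver markers 0 passed. The part of these markers in the family's change was not tested.

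Over the control arm, the order of the means was day 3, day 9 and day 21 for the 7 measured members. Day 21 against day 9 gave 0 of 9 calls, against 0.45% of all tested miRNAs in either direction, and 0 had an unadjusted p under 0.05. Day 21 against day 3, on different slides, gave 8 of 9 higher, against 16.9% of all tested miRNAs, from 0.61 for let-7d to 1.08 for let-7c among the measured members. The 8 include let-7e, unmeasured at day 3. All 7 measured members were called higher, against 25% of the 152 miRNAs measured on every array. The count of 8 was 0 with no scaling or with spike-in probes. Without control day 21 replicate 4 it was 5, and let-7a, let-7d and let-7f were no longer called (limma adjusted p of 0.054 to 0.0835). In this comparison 5 of 6 platelet markers were also higher and none lower, with a median change of 0.66 and summed signals of 10.1 to 19.1 at day 21 against 6.74 to 9.85 at day 3. Of the other lists 2 of 5 tested leukocyte, 1 of 6 erythroid and 1 of 4 tested liver markers were higher and none lower. The part of these markers was not tested.

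In the TSN arm day 21 against day 3 gave 0 of 9 calls, against 6.98% of all tested miRNAs in either direction, with let-7g at 0.45 (limma adjusted p = 0.0683) the 1 member under an unadjusted p of 0.05. Day 9 against day 3 gave 1 call, let-7e lower, against 25% of all tested miRNAs. Its day 9 arrays stood at the floor, so that call has no measured size. It was lost under 3 of 11 settings, and the change ran from -1.1 to 0.20 over the settings. The mean of the 7 measured members, each centred on its own mean over the 6 groups, stood at 0.16, 0.12 and 0.26 in TSN exosomes at days 3, 9 and 21, against -0.68, -0.04 and 0.17 in control exosomes. By these means the control group of day 3 was the lowest of the 6, and this group enters the comparison of the arms at day 3 and 2 of the comparisons within the control arm.

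**Figure D4:**
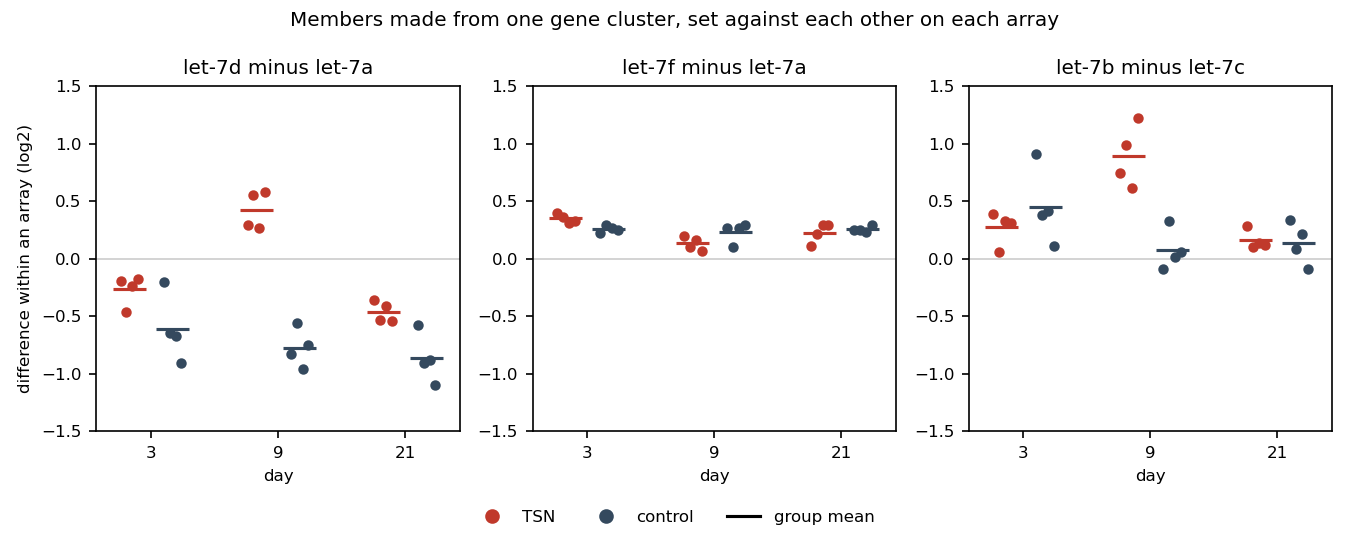
Difference (log2) between 2 members of a gene cluster on each array, by day, with TSN left of control and group means as bars. The 4 TSN arrays of day 9 lie at 0.27 to 0.58 for let-7d minus let-7a and at 0.61 to 1.22 for let-7b minus let-7c, where 1 control array of day 3 lies at 0.91, while let-7f minus let-7a stays between 0.07 and 0.40 on every array.

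Members of 1 cluster were set against each other, in pairs, within each array, where the scaling between arrays cancels. Mature let-7f and let-7c also have genes outside the cluster of their pair, on the X chromosome and on chromosome 16. The array also names a passenger strand let-7a-2-3p beside let-7a-1-3p, so let-7a has a further precursor. A signal can therefore add up the products of several genes, and the share of each was not tested. These pairs were examined after the values above were seen and are given as a description, with no test. let-7d minus let-7a was 0.29, 0.55, 0.27 and 0.58 (log2) on the TSN arrays of day 9, against -0.83, -0.56, -0.96 and -0.75 on the control arrays of day 9. The 4 TSN arrays of day 9 lay above every other array of the study in either arm. The level of the difference has no meaning, since the probes differ. The shift in it was 1.2 between the arms at day 9, 0.34 at day 3 and 0.41 at day 21. Within the TSN slide the shift was -0.88 for day 21 against day 9. Under the 10 alternatives of scaling, background and probe it ran from -0.88 to -0.33 there, and between the arms from 0.04 to 0.34 at day 3, from 0.70 to 1.2 at day 9 and from 0.13 to 0.46 at day 21.

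let-7b minus let-7c did not overlap between the arms at day 9, at 0.74, 0.99, 0.61 and 1.22 on TSN arrays against -0.09, 0.33, 0.01 and 0.06 on control arrays, a shift of 0.82. Control day 3 replicate 1, at 0.91, lay above 2 of these 4 TSN arrays. At day 21 the shift was 0.03, with 0.10 to 0.28 on TSN arrays against -0.09 to 0.34 on control arrays. Within the TSN slide, day 21 against day 9 gave -0.73. Under the same alternatives the shift ran from 0.46 to 0.82 between the arms at day 9 and from -0.73 to -0.49 within the slide. let-7f minus let-7a, the 3rd pair, moved by 0.09, -0.10 and -0.03 between the arms at days 3, 9 and 21, with ranges of 0.08 to 0.20, -0.16 to 0.14 and -0.03 to 0.15 under the alternatives.

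**Figure D5:**
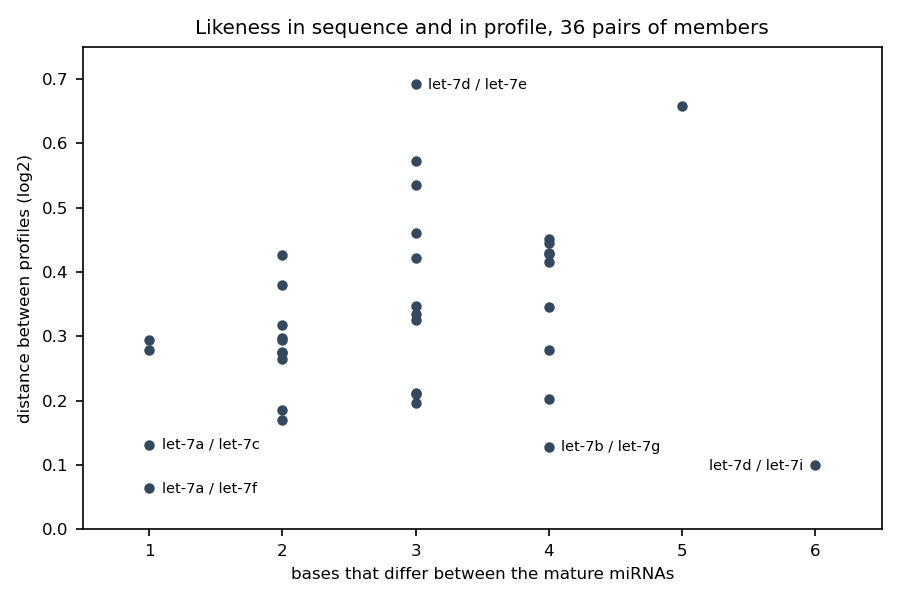
Distance between the profiles of 2 members (root mean square over the 6 centred group means, log2) against the number of bases at which their mature sequences differ, for all 36 pairs. let-7a and let-7f, 1 base apart, are the closest at 0.0634, and let-7d and let-7i, 6 bases apart, are next at 0.0996.

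Profiles over the 6 groups were compared by the root mean square distance between centred group means. The closest pair was let-7a and let-7f at 0.0634, followed by let-7d and let-7i at 0.0996, let-7b and let-7g at 0.127 and let-7a and let-7c at 0.131. let-7a and let-7f differ at 1 base, share a cluster on chromosome 13, and have probes that share all but that base over their common length. let-7d and let-7i differ at 6 bases, the most of any pair, and lie on different chromosomes. The 4 pairs that differ at 1 base had distances of 0.0634 to 0.294, and the 10 pairs that differ at 2 bases 0.17 to 0.427. The farthest pair was let-7d and let-7e at 0.692, which rests on the dim let-7e.

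Among the 145 other miRNAs measured on all 24 arrays, those nearest to the mean profile of the 7 measured members were miR-26b-5p at a distance of 0.161, miR-23a-3p at 0.164, miR-378d at 0.167, miR-378b at 0.176 and miR-29b-3p at 0.197, where the median of the 145 was 0.50. miR-26b-5p stood at 0.23, -0.20 and 0.27 in TSN exosomes at days 3, 9 and 21, against -0.74, 0.10 and 0.33 in control exosomes.

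The passenger strands, the 3p arms left over when a precursor is processed, were mostly out of range. Of the 11 on the array 1 was tested, let-7d-3p, and no array measured the others above background. let-7d-3p had changes of 0.06 at day 3 and 0.75 at day 9 (limma adjusted p = 0.956 and 0.0969) and fell by 1.15 at day 21 (limma adjusted p = 0.0196), averaging -4.23 ± 0.71 on TSN arrays and -3.08 ± 0.73 on control arrays (SD). Its 5p partner let-7d had a change of 0.32 at that day.

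The miR-99, miR-100 and miR-125 miRNAs share primary transcripts with some let-7 genes. Of 5 listed, 4 were tested. miR-99a-5p was higher in TSN exosomes at all 3 days. At day 3 it was at least 1.09-fold higher (limma adjusted p = 7.58e-05), since no control array was well above background. Its changes were 0.86 at day 9 and 0.55 at day 21 (limma adjusted p = 0.000357 and 0.0173), with 1 and 2 of the 4 control arrays well above background. miR-125b-5p rose by 0.86 at day 3 (limma adjusted p = 0.012) and had -0.54 and 0.26 at days 9 and 21, which did not pass. miR-100-5p and miR-125a-5p did not pass at any day.

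Markers of the cells that shed vesicles into serum were read beside the family. At day 3 all 7 measured members were called higher. On that day miR-451a (red cells), miR-223-3p (platelets and myeloid cells) and miR-122-5p (liver) had changes of -0.07, 0.03 and 0.00. None of these defining markers passed. Of the listed markers 2 erythroid were higher and 2 lower, 2 of 6 platelet were higher and none lower, 1 of 5 tested leukocyte was higher and 2 lower, and 1 of 4 tested liver was higher and none lower. At day 21 none of the erythroid markers was higher and 1 was lower, and 4 of 6 platelet and 3 of 5 leukocyte markers were lower, miR-223-3p by -1.09 (limma adjusted p = 4.71e-05), while the 7 measured members did not pass. The part of these markers in the family's values was not tested.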

How the data were processed

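The labels' protocols give RNA extraction with kits, Cy3 labelling and hybridisation to mouse miRNA arrays in 1 colour. The scanner files hold fluorescence intensity, which the authors deposited per array and which Feature Extraction 10.7.1.1 had corrected for background, per the file headers. The authors' deposited values are taken as log2, and their scaling and centring are not given in the sources used here. Of 58594 spots, 56430 were not controls, none was saturated, and a probe had a median of 15. The number of arrays limits the precision.

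Spots marked as outliers were left out and the rest averaged per probe. Arrays were scaled to their own 75th percentile, taken over the 261 probes that passed the software's background test on all 24, then floored at 0.0135 and put on the log2 scale. One limma fit of the 6 groups took the 444 miRNAs that passed on every array of some group (limma 3.58.1, R 4.3.3, two-sided, Benjamini-Hochberg at 0.05 in each of 12 comparisons, prior degrees of freedom 1.27), and was tested on simulated data. Where all arrays of a group failed the background test, "at least N-fold" compares the other group's mean with the detection limit, or with the failing signal if that was higher. All 9 members are named, and the members and lists were chosen with earlier results of these data known. The miRNAs of nearest profile were the 5 with the smallest distance. The within-array pairs were added after the members' values were seen.

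No slide held both arms. Control days 3 and 9 shared a slide, as did TSN days 9 and 21, and control day 21 and TSN day 3 had a slide each. Replicate numbers are slide columns. Same-numbered arrays of the 2 arms at day 9 deviated from their group means in common, with r of 0.202 to 0.353 across miRNAs in 4 of 4 pairs, so the replicate block applies there. In the other 8 comparisons of 2 groups they did so in part at most, with r over 0.1 in 0 to 3 of the 4 pairs. There r ran from -0.542 to 0.503. Alternatives changed the scaling, background correction, signal, probe, floor, filter and block, or left out 1 array. Figures were drawn with matplotlib.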

Additional observations from a re-analysis of the deposited data

Results flagged for a closer look

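Of 54 member-by-group sets of 4 arrays, 0 held an array set far apart from the other 3 by Dixon's criterion. For 8 results a member's TSN effect differed between days by an interaction term of the limma fit. Between day 3 and day 9 the difference (day 9 minus day 3) was -1.13 (log2) for let-7a, -1.12 for let-7c and -1.32 for let-7f, where the control group of day 3 had the lowest mean. The median of all tested miRNAs was -0.27 for this difference. let-7e gave -1.86, with its TSN arrays of day 9 at the floor and its control arrays of both days not well above background, so that the value is no measured size. For day 21 minus day 9 let-7i gave -0.68. For day 21 minus day 3 let-7d gave -0.74, let-7i -0.98 and let-7e -1.09, the last again no measured size, since the control arrays of day 3 were not well above background for let-7e. Calls were lost under 6 of 12 settings of the processing for let-7a, let-7c and let-7f, under 7 for let-7i in day 21 minus day 9, and under 3 for let-7i and 11 for let-7d in day 21 minus day 3. Days 3, 9 and 21 lay on different slides in at least 1 arm, and the part of the slide in these differences was not tested.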

How the results depend on the processing

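The arms differ in slide and in array brightness, and the dim let-7e and miR-98 carry little information. The main counts (higher, lower) were 8 and 0 for TSN against control at day 3, 3 and 1 at day 9, 0 and 1 at day 21, 2 and 1 for TSN day 21 against day 9, 0 and 1 for TSN day 9 against day 3, 4 and 0 for control day 9 against day 3, and 8 and 0 for control day 21 against day 3. The interaction terms gave 4 lower for day 9 minus day 3, 1 lower for day 21 minus day 9 and 3 lower for day 21 minus day 3. The 8 called higher at day 3 did not hold under most settings, since let-7e lost its call under 9 of 11 and let-7a under 4 of 12. Over 108 single-member changes, scaling, signal, probe and filter settings left 1046 values on the same side of the threshold, put 162 out of the calls, brought 48 in and reversed 16. The 1046 include changes of sign in values that did not pass either way, such as let-7f at day 21, at -0.11 but 0.29 by the dimmer probe. The cause was not tested.

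Scalings that moved the median miRNA by over 0.1 are read relative to it. At days 3, 9 and 21 that median, TSN against control, moved by 2.09, 2.45 and 2.05 with no scaling, by 1.56, 1.89 and 1.4 with spike-in probes, by -1.66, -2.04 and -1.38 with normexp, and by 0.37, 0.55 and 0.33 with quantile normalization. With no scaling, TSN against control gave 2 lower at day 3 and 2 at day 9, TSN day 21 against day 9 gave 1 higher and 0 lower, both control comparisons with day 3 gave 0 higher, and the interactions gave 1 lower for day 9 minus 3, 1 higher and 0 lower for day 21 minus 9, and 0 lower for day 21 minus 3. Spike-in probes gave 2 lower at day 9 and the same counts as no scaling for TSN day 21 against day 9, both control comparisons and the interactions. The 75th percentile over all probes gave 0 lower at day 21, 1 higher for TSN day 21 against day 9, 0 higher for control day 9 against day 3, and 1 lower for both interactions with day 3. Quantile normalization gave 4 higher at day 3, 1 higher and 2 lower at day 9, 0 lower at day 21, 0 lower for TSN day 21 against day 9, 1 higher for TSN day 9 against day 3, 2 higher for control day 9 against day 3, and 0 and 1 lower for day 21 minus 9 and minus 3. The authors' values gave 0 higher and 2 lower at day 9, 0 lower at day 21, 0 lower for TSN day 21 against day 9, 2 lower for TSN day 9 against day 3, 2 higher for control day 9 against day 3, and 0 and 1 lower for day 21 minus 9 and minus 3.

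Normexp gave 7 higher and 0 lower at day 9 and at day 21, 0 higher for TSN day 21 against day 9, 0 lower for TSN day 9 against day 3, 0 and 4 higher for control days 9 and 21 against day 3, and 0 lower for both interactions with day 3. Total gene signal gave 0 lower at days 9 and 21, 0 higher for TSN day 21 against day 9, 0 lower for TSN day 9 against day 3, 0 and 5 higher for control days 9 and 21 against day 3, and 0, 0 and 1 lower for the interactions day 9 minus 3, day 21 minus 9 and day 21 minus 3. The mean of the probes gave 1 higher for TSN day 21 against day 9, 2 lower for TSN day 9 against day 3 and 1 lower for day 21 minus 3. The dimmer probe gave 1 higher and 0 lower at day 9, 0 lower at day 21, 5 higher and 0 lower for TSN day 21 against day 9, 3 lower for TSN day 9 against day 3, 9 lower for day 9 minus 3, 1 higher and 0 lower for day 21 minus 9, and 1 lower for day 21 minus 3. A floor of 0.5 times the main one gave 0 lower at day 21, 2 lower for TSN day 9 against day 3 and 1 higher for day 21 minus 9. No filter, where over 0.5 of the residual variances were 0 and the moderated fit is unreliable, gave 0 lower at day 21, 0 higher for TSN day 21 against day 9, 2 and 5 higher for control days 9 and 21 against day 3, and 1, 0 and 1 lower for the interactions. With the 152 miRNAs well above background throughout, which leave out let-7e and miR-98, 0 were lower at days 9 and 21.

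Those counted among the 16 reversed values (log2) were let-7e at day 3 with spike-in probes (-0.228), no scaling (-0.583) and normexp (-0.299), and miR-98 at day 3 with no scaling (-0.61). With normexp let-7a (1.34), let-7c (0.963) and let-7f (1.34) reversed at day 9 and let-7a (1.12) and let-7f (1.15) at day 21, only once the median shift was subtracted. For TSN day 21 against day 9, let-7b was 0.521 by the dimmer probe and let-7e -0.331 by total gene signal, which gave let-7e 0.204 for TSN day 9 against day 3. For control day 9 against day 3 let-7e was 0 with quantile normalization, spike-in probes and no scaling, and for day 21 against day 3 -0.0488 with no scaling.

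The replicate block changed no call of the members in any of the 9 comparisons of 2 groups. Among the interactions it added let-7e, 1 higher for day 21 minus 9 at 0.766 (limma adjusted p = 0.0389), and lost let-7d for day 21 minus 3 at -0.744 (0.0613). Leaving out each array gave 6 to 8 higher at day 3, 3 higher and 1 to 3 lower at day 9, and 0 to 2 higher and 0 to 1 lower at day 21. It gave 1 to 4 higher and 1 to 2 lower for TSN day 21 against day 9, 1 to 2 lower for TSN day 9 against day 3, 2 to 5 and 5 to 8 higher for control days 9 and 21 against day 3, 3 to 5 lower for day 9 minus 3, 0 to 1 higher for day 21 minus 9 and 1 to 4 lower for day 21 minus 3. TSN day 9 replicate 1 gave the 3 lower at day 9, the 4 higher for TSN day 21 against day 9 and the 2 lower for TSN day 9 against day 3 when left out. Without TSN day 9 replicate 4 or TSN day 21 replicate 2, TSN day 21 against day 9 had 1 higher and 2 lower. Control day 9 replicate 2 gave the 2 for control day 9 against day 3, control day 21 replicate 4 the 2 higher at day 21 and the 5 for control day 21 against day 3, and TSN day 21 replicate 3 the 1 lower for day 21 minus 3. The 1 higher for day 21 minus 9 came without control day 9 replicate 3, control day 21 replicate 4 or TSN day 21 replicate 3. The call of let-7e at day 21 was lost without control replicate 2 or 4 or TSN replicate 1, 3 or 4. The slide as a block could not be run, because no slide held both arms and the comparisons on 1 slide leave it constant.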
